A study of Mus musculus with 2 samples.

Results

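The genes described here are 9 whose products build or maintain the myelin sheath: Mbp, Mog, Mag, Cnp, Mobp, Ugt8a, Aspa, Opalin and Cldn11. They were taken by name, by a rule that uses no measured value, but with earlier results of these data known. All 9 were matched among the 21911 protein-coding genes of GENCODE vM21 on mm10. For each gene the region examined, here its span, was the gene body plus 20 kb on each side, 675 kb over the 9 genes. Chromatin accessibility was measured by DNase-seq, in which DNase I cuts open DNA in isolated nuclei and the cuts are sequenced. The material was frontal cortex of male B6CASTF1/J mice, an F1 cross of C57BL/6J and CAST mice, aged 10 days. There was 1 group of 2 biological replicates and no second condition. Both libraries carry the same donor entry and a label note of 3 males, and separate animals are not stated, so the spread between them may be technical.

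Myelin is the membrane that oligodendrocytes wrap around axons. Oligodendrocyte precursors, which carry Pdgfra and Olig2, differentiate under factors such as Sox10 and Myrf and then make myelin lipids and proteins in large amounts. In the mouse brain myelination runs from the hindbrain forward, and the cortex is among the later regions. Open chromatin was read here in whole tissue, so fewer cells of a type and less access per cell cannot be told apart, and the time of myelination itself was not measured.

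Each library came with 4 peak lists. In the strict list every peak held a base with a false discovery rate (FDR) under 0.001, and in the loose list under 0.05. A smaller and a larger list, called read-derived below, came from another run on the sequenced reads. Hotspots are wider accessible regions with the highest −log10 FDR per region, and footprints are short stretches protected from cutting, which in the spans lay inside hotspots but for 1, at Aspa. A promoter was called open in a list where a peak lay within 1 kb of any annotated start of the gene, and closed where no peak list held one. An interval was called shared where it overlapped one of the same kind in the other library. The strength of a peak is the authors' cleavage density, and its percentile is the rank within its own list. There were 39608 strict peaks in replicate 1 and 45915 strict peaks in replicate 2, and read totals were not used here.

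Most of these myelin promoters held no strict peak. The strict lists of both libraries held a promoter peak for 2 of the 9 genes, Cnp and Ugt8a (22.2%, exact 95% interval 2.81 to 60.0), against 55.1% of all protein-coding genes. The interval includes the share of all genes, and it covers counting error only. Each library alone gave the same 2 genes, against 57.7% of all genes in replicate 1 and 56.9% in replicate 2. The loose lists of both libraries added Mbp and Aspa, which made 4 of 9 (44.4%, 13.7 to 78.8), against 61.3% of all genes. The loose list of each library alone gave the same 4, against 63.5% of all genes in replicate 1 and 63.3% in replicate 2. Open in both loose lists but in no strict list of both were thus 2 of 9, against 6.18% of all genes. The promoters of Mog, Mag, Mobp, Opalin and Cldn11 had no peak in any of the 8 lists, 5 of 9 (55.6%, 21.2 to 86.3), against 33.7% of all genes.

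The smaller read-derived lists gave Cnp and Ugt8a, 2 of 9, against 57.9% of all genes. The larger read-derived lists gave Mbp, Cnp and Ugt8a, 3 of 9, against 60.6% of all genes. Among the peak lists Aspa was thus open in the loose ones alone. The hotspots of both libraries reached the promoters of Mbp, Cnp, Ugt8a and Aspa, 4 of 9, against 63.4% of all genes. A hotspot of 1 library reached 3 more, Mog and Mag in replicate 2 and Cldn11 in replicate 1. These were weak, at −log10 FDR of 1.49, 1.60 and 1.50, or percentiles 11.5, 16.9 and 12.2 of their hotspot lists. No hotspot reached a start of Mobp or Opalin. The shares of all genes with a promoter hotspot in 1 library alone, or in neither, are not given here.

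**Figure D1:**
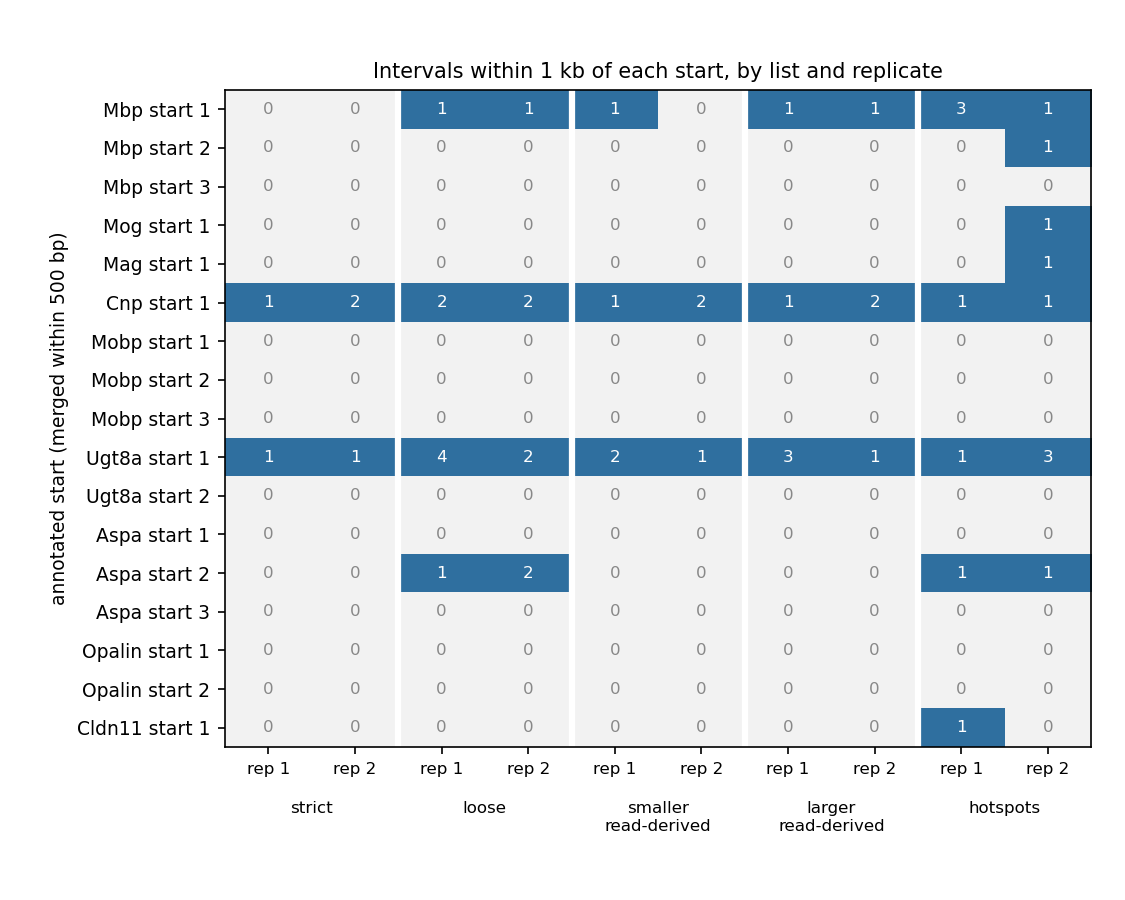
Number of peaks or hotspots within 1 kb of each annotated start (rows, with starts of a gene within 500 bp merged and numbered in the direction of transcription) in each list and replicate (columns). Shaded cells hold at least 1 interval. Of 17 starts, 2 are open in both strict lists, and 13 are in no peak list, with no share over the starts of all genes given.

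By start, 2 of 17 merged starts were open in both strict lists, 4 in both loose lists, and 13 in no peak list. Shares over the merged starts of all genes are not given here, and the shares by gene above are no measure for them. A start of a single transcript counts as much as a main start. Each of the 4 genes open in the loose lists was open at 1 of its starts.

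Promoters rich in CpG dinucleotides are open in most tissues, so the base composition of the members is given beside their state. The CpG ratio, observed over predicted from base content, was taken from 250 bases before to 50 after the first start, and 0.6 was the limit between poor and rich. There were 5 poor promoters, namely Mog (0.171), Opalin (0.181), Mag (0.194), Mobp (0.320) and Cnp (0.540), and 4 were rich, namely Mbp (0.656), Cldn11 (0.730), Aspa (0.798) and Ugt8a (0.953). The median of all genes was 0.524. The Mbp ratio is that of its upstream start, and its internal start had 0.455. The Aspa ratio is that of a first start without a peak, and its open middle start had 0.621. The Cnp ratio is that of its start, and the 200 bases of its replicate 1 strict peak, which begins 157 bp downstream, had 0.724. The ratio of its replicate 2 peaks is not given here. Of the 5 CpG-poor members 1 was open in both strict lists, against 29.7% of all CpG-poor genes, and the same 1 in both loose lists, against 36.7%. Of the 4 CpG-rich members 1, Ugt8a, was open in both strict lists, against 87% of all CpG-rich genes, and 3, with Mbp and Aspa, in both loose lists, against 92.1%. The other, Cldn11, was in no peak list, against 4.93% of all CpG-rich genes. No peak list held the promoter of 4 of the 5 CpG-poor members, against 56.7% of all CpG-poor genes.

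Among the enzymes, Cnp was one of the open genes. Cnp encodes a cyclic nucleotide phosphodiesterase that keeps cytoplasmic channels open in myelin. Its 4 transcripts form 1 merged start at chr11:100574904, plus strand, and the strict lists held 1 peak there in replicate 1 and 2 in replicate 2. The density was 1.06 in replicate 1 and 1.13 in the stronger peak of replicate 2, at percentiles 30.7 and 55.9 of the strict lists. Both values are of ordinary strength for a strict peak. The hotspot over the start reached a −log10 FDR of 3.84 in replicate 1 and 6.14 in replicate 2, with 5 and 11 footprints. One of these footprints was shared. The lowest FDR at a base within 500 bp was 1.4e-04 in replicate 1 and 1.0e-05 in replicate 2, so the promoter does not pass an FDR of 0.0001 in replicate 1.

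The replicate 1 peak lies in the gene at chr11:100575061-100575260 on mm10 and begins 157 bp downstream of the start. It is shown, plus strand, because it is one of the open promoters, with bases in a footprint of either library in capitals.
Cnp: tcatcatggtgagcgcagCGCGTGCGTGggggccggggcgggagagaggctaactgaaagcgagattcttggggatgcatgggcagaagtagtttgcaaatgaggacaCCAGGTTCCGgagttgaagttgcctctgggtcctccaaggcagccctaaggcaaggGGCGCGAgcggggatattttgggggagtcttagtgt
The 3 footprints in it were of replicate 1, and the footprints of replicate 2 lay beside it.

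Of the 6 sites in the Cnp span, 1 was the promoter and 5 were strict in 1 library. Of these, 4 lay in introns of the neighbouring gene Ttc25, between 3514 and 19131 bp upstream of the Cnp start. The other lay in Cnp itself, 6066 bp from the nearest Cnp start and 2829 bp from the start of the neighbour Dnajc7. The pair at 10413 and 19131 bp was strict in replicate 2 with densities of 1.21 and 1.17, and loose in replicate 1 with 1.01 and 1.02. The site at 4251 bp was strict in replicate 1 with 1.36 and loose in replicate 2 with 0.777. Its footprint of 32 bp had the same first and last base in both libraries.

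Ugt8a encodes the galactosyltransferase that makes galactosylceramide, the main glycolipid of myelin. Its first start, at chr3:125938619 on the minus strand, is CpG-rich and was open in all 8 lists. The strict peak had a density of 0.910 in replicate 1 and 0.593 in replicate 2, at percentiles 21.7 and 18.1. It was thus a weak peak for the strict lists in both libraries. The −log10 FDR of the hotspot was 7.02 in replicate 1 and 5.05 in replicate 2, and the lowest FDR at a base was 2.2e-06 and 4.5e-05. At an FDR of 0.0001 or lower Ugt8a was the one member with a promoter peak in both libraries. The share of all genes at this limit is not given here, and fewer peaks pass it than are in the strict lists.

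The replicate 1 peak, chr3:125938761-125938960 on mm10, lies upstream of the start and is shown on the minus strand for the same reason, with footprint bases in capitals.
Ugt8a: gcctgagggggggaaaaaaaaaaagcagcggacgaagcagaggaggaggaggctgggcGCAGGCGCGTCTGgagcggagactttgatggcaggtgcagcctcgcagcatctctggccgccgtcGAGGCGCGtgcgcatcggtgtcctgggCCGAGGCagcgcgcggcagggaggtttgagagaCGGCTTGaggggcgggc
There were 7 bases that lay in a footprint of both libraries, and the hexamer GGGCGG occurs once, near the end and outside the footprints.

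The alternative Ugt8a start at chr3:125915885, with 1 transcript, had no interval in any list. Elsewhere in the span of 113 kb a site in an intron was strict in replicate 2 alone, with a density of 0.342 at percentile 4.05, and a pair beyond the end of the gene was in the loose list of replicate 2. The span held 0.0882 shared strict peaks per 10 kb, against a median of 0.213 over all genes.

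Aspa encodes aspartoacylase, which frees acetate from N-acetylaspartate for lipid synthesis in oligodendrocytes. It was open in the loose lists alone, and at its middle start, chr11:73326807 on the minus strand, the start of Aspa-205 and Aspa-203. The site lay 774 bp upstream, with a density of 0.444 in replicate 1 and 0.270 in replicate 2. These are percentiles 12.5 and 6.80 of the loose lists, close to the bottom. Replicate 2 had a second loose peak 29 bp from that start, with a density of 0.224. The CpG-rich first start and the last start had no interval in any list, and the nearest strict peak to the middle start was 44827 bp away in replicate 1 and 44847 bp in replicate 2. The span held no strict peak, 1 hotspot in each library and 1 footprint, in replicate 2.

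Among the structural proteins, Mbp had an open site near its upstream start alone, and that in the loose lists. Mbp encodes myelin basic protein, which holds the inner faces of compact myelin together, and from the upstream start the Golli proteins, which are also made outside myelin. The upstream start at chr18:82475146 (4 transcripts) had 1 loose peak in each library, but the peaks did not overlap. The peak of replicate 1 was centred 633 bp downstream with a density of 0.845 (percentile 44.8), and that of replicate 2 was centred 73 bp downstream with 0.817 (percentile 61.9). Mbp was therefore open in both loose lists at the promoter, without a shared peak there. The hotspots at the start did overlap.

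The internal start at chr18:82554470, from which 11 transcripts including the classic myelin basic proteins begin, had no peak in any list. A hotspot of replicate 2 alone reached it, with a −log10 FDR of 1.40. The nearest strict peak was 13311 bp away in replicate 1 and 13360 bp in replicate 2. Another start, of the single transcript Mbp-214 at chr18:82563262, had no interval within 1 kb.

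The Mbp span of 150 kb held 18 sites, more than any other member, and 4 of them were strict in both libraries, all in introns. The first lay 33094 bp downstream of the Golli start, with densities of 1.21 in replicate 1 and 1.20 in replicate 2. The second lay 18260 bp upstream of the internal start, with densities of 1.77 and 1.66. The other 2 lay 4611 and 12474 bp downstream of the Mbp-214 start. These 4 sites were in all 8 lists, while the internal start was in none.

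The last of the 4 was the strongest Mbp site in both libraries, at chr18:82575589-82575883. Its density was 2.39 in replicate 1 and 1.67 in replicate 2, at percentiles 70.5 and 73.3, and its lowest FDR was 9.9e-13 and 1.3e-08. A further 3 sites were strict in 1 library and loose in the other. Upstream of the gene, sites at 12827 and 4949 bp before the Golli start were loose in both libraries.

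Mobp encodes a small basic protein of compact myelin. Its main start, chr9:120149707 on the plus strand with 5 transcripts, and its 2 other starts had no peak and no hotspot in either library. The nearest strict peak to the main start was 21607 bp away in replicate 1 and 8787 bp in replicate 2. The peak of replicate 2 was a site upstream of the gene that was strict in replicate 2 (density 1.05) and loose in replicate 1 (0.823). Of the 6 sites in the span 1 was strict in both libraries, at chr9:120191482-120191728, in an intron of Gm38642 beyond the end of Mobp. Its density was 2.27 in replicate 1 and 1.44 in replicate 2, at percentiles 68.9 and 67.8. Sites in an exon of Mobp, in the same neighbour and at the promoter of Gm38642 were strict in replicate 2 alone.

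The replicate 1 peak of the first of these, chr9:120191501-120191700 on mm10, is shown on the plus strand because it is the firmest Mobp site, with footprint bases in capitals.
Mobp: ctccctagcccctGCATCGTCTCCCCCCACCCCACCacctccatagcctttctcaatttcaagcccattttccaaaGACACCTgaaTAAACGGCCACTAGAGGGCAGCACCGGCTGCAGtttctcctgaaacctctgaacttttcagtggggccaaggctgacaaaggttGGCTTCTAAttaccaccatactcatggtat
It held 4 footprints of replicate 1 and 2 of replicate 2, and 41 bases were in a footprint of both. The longest, of 32 bp in replicate 1 and 33 bp in replicate 2, began at the same base.

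Cldn11 encodes the claudin that forms the tight junction strands of central myelin. Its single start, chr3:31149920 on the plus strand, is CpG-rich but was in no peak list, with only a hotspot of replicate 1 at a −log10 FDR of 1.50. The 250 bases before it, chr3:31149670-31149919, are shown on the plus strand as the CpG-rich promoter without a peak, with CG dinucleotides in capitals.
Cldn11 promoter: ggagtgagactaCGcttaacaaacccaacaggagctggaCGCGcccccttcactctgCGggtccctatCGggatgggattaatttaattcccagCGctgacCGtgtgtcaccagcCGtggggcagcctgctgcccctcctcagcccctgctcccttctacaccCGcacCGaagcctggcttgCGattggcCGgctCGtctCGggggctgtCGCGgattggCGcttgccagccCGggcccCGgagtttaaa
They hold 19 CG dinucleotides at 63.6% G and C. A site 3762 bp upstream was strict in replicate 2 with a density of 1.05 and loose in replicate 1 with 1.25. The site strict in both libraries lay beyond the gene, 16690 bp downstream of the start, at densities of 1.01 in replicate 1 and 0.975 in replicate 2.

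The replicate 1 peak of that site, chr3:31166562-31166736 on mm10, is shown on the plus strand as the firmest Cldn11 site, with footprint bases in capitals.
Cldn11: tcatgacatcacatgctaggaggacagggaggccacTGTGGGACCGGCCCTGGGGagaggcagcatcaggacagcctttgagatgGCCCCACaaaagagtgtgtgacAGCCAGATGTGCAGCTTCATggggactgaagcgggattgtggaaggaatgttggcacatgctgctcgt
Of 46 such bases 1 was in a footprint of both libraries. Replicate 1 placed 1 footprint in it and replicate 2 placed 3, of which 1 met that of replicate 1 at this base.

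Among the surface proteins, Mog stood beside the strongest site of all 9 spans. Mog encodes a glycoprotein of the outermost myelin layer. Its start, chr17:37023398 on the minus strand, was in no peak list, and a hotspot of replicate 2 alone reached it with a −log10 FDR of 1.49. The site lay 5445 bp upstream, between genes, at chr17:37028626-37029060, and the Mog start was the nearest start of a protein-coding gene. Its density was 6.35 in replicate 1 and 4.74 in replicate 2, at percentiles 90.7 and 93.4 of the strict lists. It was the one member site above percentile 90 of either strict list. The −log10 FDR of its hotspot was 51.0 in replicate 1 and 87.8 in replicate 2, and each library placed 7 footprints in it.

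Part of this replicate 1 peak is shown on the minus strand because it is the strongest site, with footprint bases in capitals. The part is the window of 300 bases that held the most footprint bases, chr17:37028682-37028981 on mm10.
Mog: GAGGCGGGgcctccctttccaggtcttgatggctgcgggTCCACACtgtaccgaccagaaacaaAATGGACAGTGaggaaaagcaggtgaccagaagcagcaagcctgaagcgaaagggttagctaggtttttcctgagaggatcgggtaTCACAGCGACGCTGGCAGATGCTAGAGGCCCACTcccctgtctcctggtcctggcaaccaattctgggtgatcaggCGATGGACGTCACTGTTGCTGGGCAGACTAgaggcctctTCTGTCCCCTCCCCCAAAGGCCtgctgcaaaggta
It has 112 bases in a footprint of either library and 54 in a footprint of both. Beyond this site the libraries differed: replicate 2 had 11 hotspots in the span (2.09 per 10 kb, against a median of 0.513 over all genes) and replicate 1 had 3 (0.570, against 0.448). In the Mog gene body replicate 2 had 5 hotspots, with a −log10 FDR between 1.33 and 1.83, and none of them was shared. The larger read-derived lists held 5 peaks in the span in each library, and the 5 of replicate 1 were all shared. Sites 3984 bp from the start of Zfp57, an imprinting regulator, and at the promoter of Zfp57 were strict in replicate 1 and loose in replicate 2, and both lie nearer to the Zfp57 start than to that of Mog.

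Mag encodes the adhesion protein of the innermost, axon-facing layer, and its span was the emptiest. No list of either library held a peak in its 55.7 kb, and neither library placed a footprint there. One hotspot, of replicate 2, reached the start at chr7:30914873 on the minus strand, with a −log10 FDR of 1.60. The nearest strict peak was 41028 bp from the start in replicate 1 and 41008 bp in replicate 2. Mag and Aspa had no shared strict peak in their spans, 2 of 9 members, against 26.2% of all genes. Mag alone had no shared hotspot, 1 of 9, against 19% of all genes, and both Mag and Aspa had no shared footprint, against 24.2%.

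The 250 bases before the Mag start, chr7:30914874-30915123, are shown on the minus strand to set this CpG-poor closed promoter beside that of Cldn11, with CG dinucleotides in capitals.
Mag promoter: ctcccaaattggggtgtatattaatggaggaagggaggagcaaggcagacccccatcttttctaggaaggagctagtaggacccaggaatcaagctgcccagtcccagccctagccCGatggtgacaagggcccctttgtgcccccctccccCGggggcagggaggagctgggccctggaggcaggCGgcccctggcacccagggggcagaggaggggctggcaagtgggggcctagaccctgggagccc
They hold 3 CG dinucleotides at 65.6% G and C, nearly the G and C content of the Cldn11 promoter. The word ctggcac, used below as a MYRF word, begins at base 193 counted from the first base shown.

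Opalin encodes a transmembrane protein of the paranodal loops of oligodendrocytes. Both of its starts, chr19:41077113 and chr19:41068123 on the minus strand, had no peak and no hotspot in either library. Between them an intron held a site strict in both libraries, at chr19:41071623-41071854, with densities of 2.26 in replicate 1 and 1.30 in replicate 2 at percentiles 68.7 and 63.4. A second site strict in both lay 9812 bp upstream of the first start, in an intron of the neighbour Tll2, with densities of 1.41 and 0.948. Closed starts thus stood beside a pair of firm sites. Of its footprints 6 of 8 in replicate 1 and 6 of 7 in replicate 2 were shared.

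The replicate 1 peak of the first site, chr19:41071661-41071820 on mm10, is shown on the minus strand because its footprints agree between the libraries, with footprint bases in capitals.
Opalin: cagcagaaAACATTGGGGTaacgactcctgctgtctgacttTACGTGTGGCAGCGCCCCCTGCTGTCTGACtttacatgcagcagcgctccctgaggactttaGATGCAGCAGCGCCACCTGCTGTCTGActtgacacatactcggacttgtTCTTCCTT
Of 76 such bases 46 were in a footprint of both libraries.

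**Figure D2:**
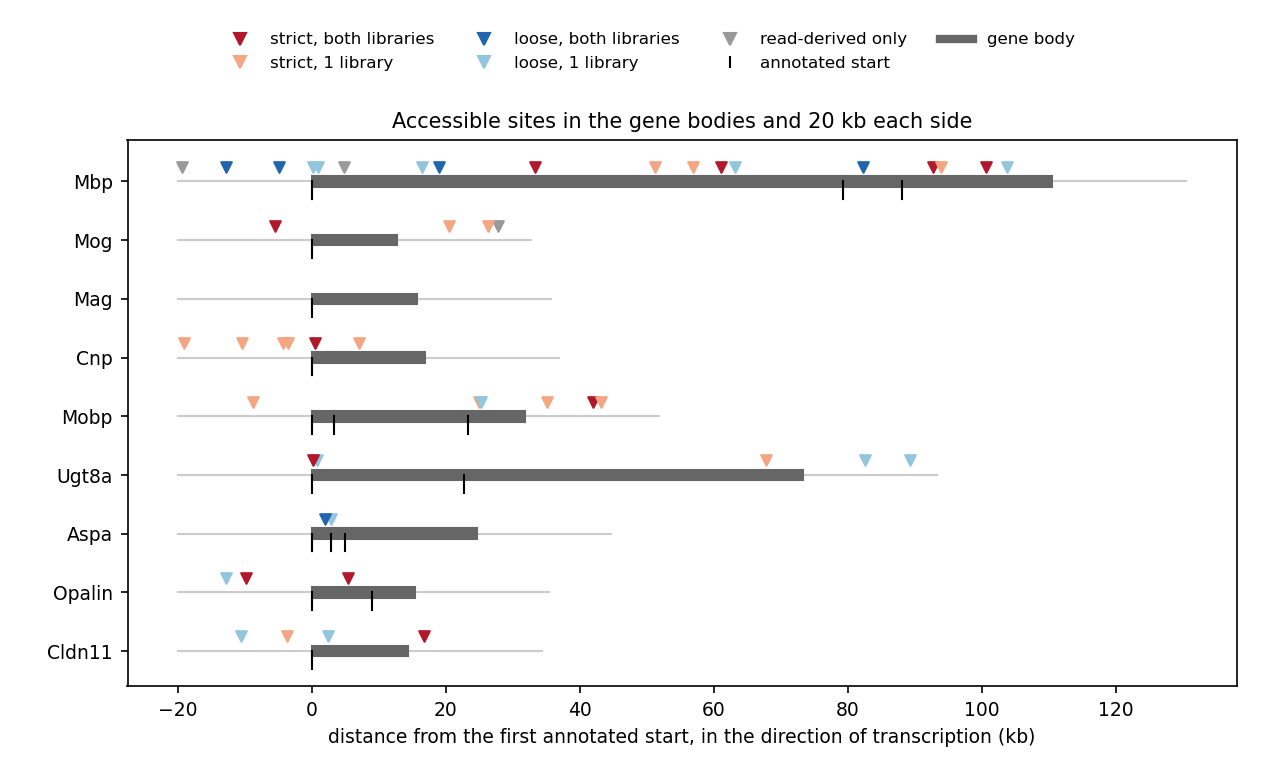
Accessible sites (triangles, peaks of all lists merged) in each gene body and 20 kb to each side, by distance in kb from the first annotated start in the direction of transcription. Bars are gene bodies, ticks annotated starts, and colours the firmest list that holds the site. Of 48 sites, 11 are strict in both libraries, and 2 of these 11 are at a promoter of the gene, in Cnp and Ugt8a.

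Over the 9 spans the peaks of all lists merged into 48 sites, of which 11 were strict in both libraries. Of these 11, 2 were at a promoter of the member, 7 in introns and 2 between genes. Thus 9 of the 11 firm sites lay away from the promoters. The share of all shared strict peaks that lie away from promoters is not given here, so this count does not set the members apart. A further 16 sites were strict in 1 library, 5 in replicate 1 and 11 in replicate 2, and 12 of the 16 were loose in both. The remaining sites were loose in both libraries (5), loose in 1 (13) or in read-derived lists alone (3). By place, 26 sites lay in the member's own body, 10 in the body of another gene and 12 outside genes, so a site in a span need not belong to the member.

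The spans held 16 strict peaks in replicate 1 and 23 in replicate 2, of which 11 were shared. The shared share was 68.8% in replicate 1 (95% Wilson interval 44.4 to 85.8) and 47.8% in replicate 2 (29.2 to 67.0), against 80.1% and 69.6% of all strict peaks. In replicate 2 the interval lies below the share of all peaks, and these intervals cover counting error only. The loose peaks were shared at 83.3% in replicate 1 and 69.8% in replicate 2, against 78.7% and 64.9% of all loose peaks. The loose lists thus went the other way, while the smaller read-derived lists, like the strict, lay below all peaks in both libraries. The smaller read-derived peaks were shared at 75.9% and 71.0%, against 83.8% and 77.0%, and the larger at 86.5% and 73.2%, against 83.7% and 74.1%. Hotspots were shared at 80.8% in replicate 1 and 75.0% in replicate 2, against 78.8% and 67.6% of all hotspots. Footprints were shared at 54.1% and 34.4%, against 55.6% and 40.7% of all footprints.

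The median strength of the members' strict peaks was near the middle of the lists, at percentile 45.6 in replicate 1 (n = 16) and 55.9 in replicate 2 (n = 23). The lowest was at 21.7 in replicate 1 and 4.05 in replicate 2, both in Ugt8a. The highest was at 90.7 and 93.4, both at the Mog site.

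**Figure D3:**
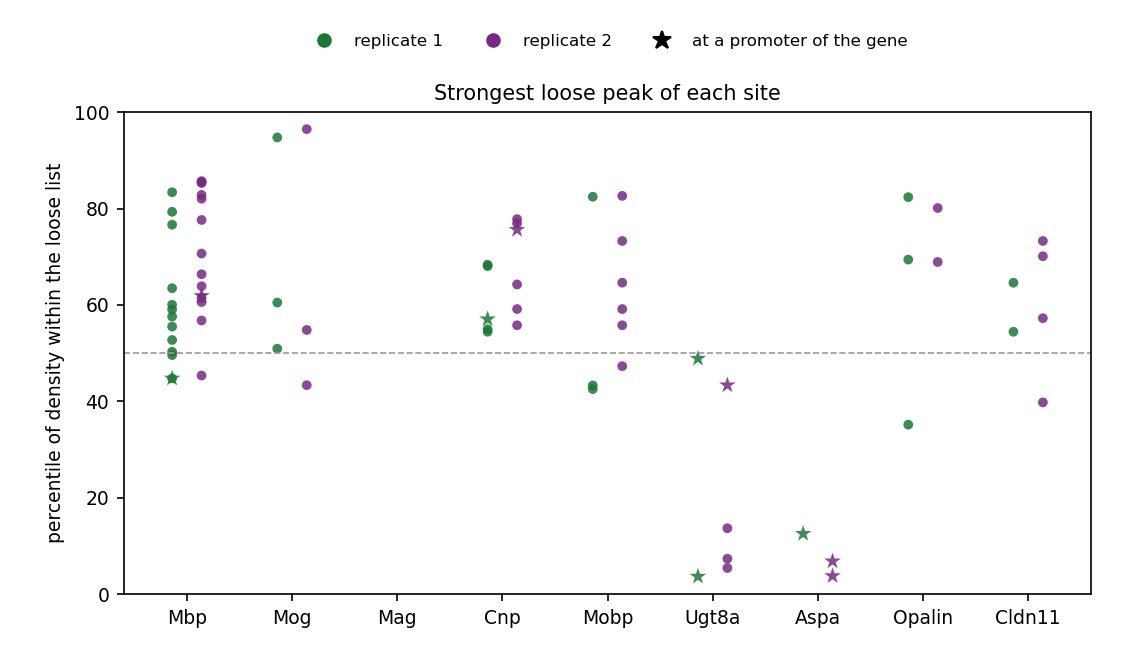
Percentile of density within the loose list (vertical axis) of the strongest loose peak at each site, by gene, for each replicate; stars lie at a promoter of the gene, and the dashed line is the middle of the list. The Mog upstream site is highest in both replicates, at 94.8 and 96.5, and Mag has no peak.

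Per 10 kb of span, the members' median was 0.176 shared strict peaks, against 0.213 over all genes, and 7 of 9 were below that value. The other peak lists went the other way: it was 0.368 shared loose peaks, against 0.359, 0.361 smaller read-derived peaks, against 0.265, and 0.418 larger read-derived peaks, against 0.359, with 3 of 9 below in each. For shared hotspots it was 0.557, against 0.372, with 4 of 9 below. For shared footprints it was 0.528, against 0.694, with 7 of 9 below. The order of the genes differed between the kinds of interval: Cnp had the most shared hotspots per 10 kb (1.23), Opalin the most shared strict peaks (0.361) and Mog the most shared footprints (1.33).

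**Figure D4:**
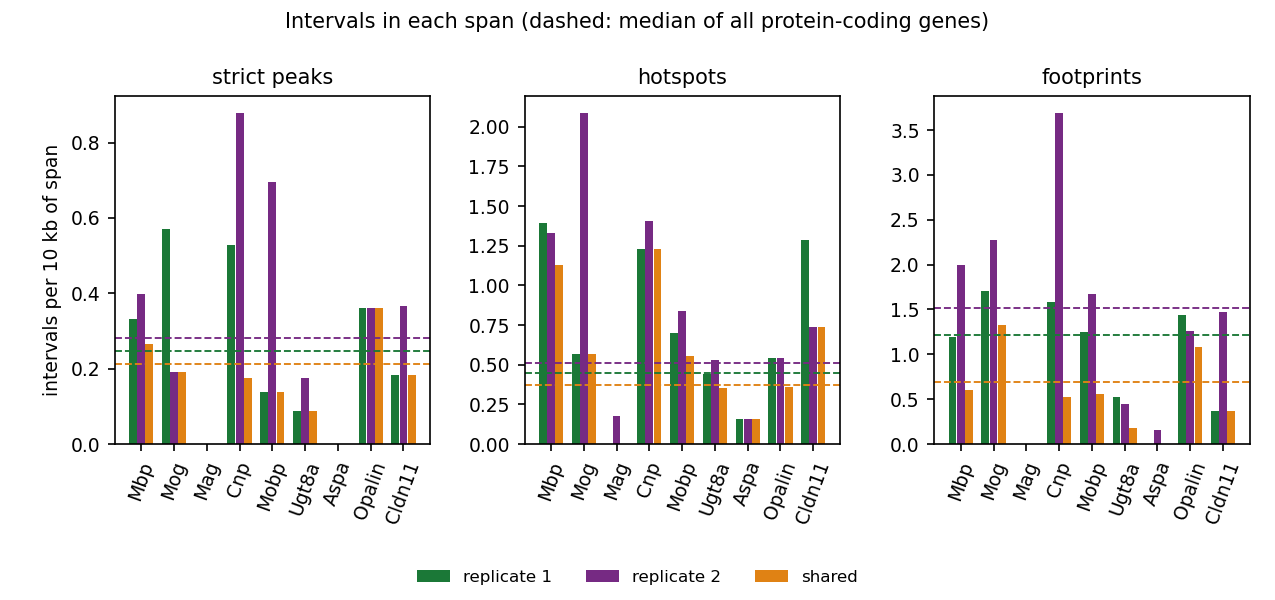
Strict peaks, hotspots and footprints per 10 kb of span for each gene, in each replicate and shared by both, with the median of all protein-coding genes as dashed lines of the same colour. Mag has a single hotspot and Aspa no strict peak, while Opalin has 0.361 shared strict peaks per 10 kb against a median of 0.213.

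Other genes of the oligodendrocyte lineage were described in the same way. Of 20 other myelin genes, 6 were open in both strict lists (30%, exact interval 11.9 to 54.3), namely Tspan2, Car2, Fa2h, Plekhb1, Enpp2 and Bcas1, which include Fa2h, the hydroxylase of myelin sphingolipids, and Bcas1, a marker of newly differentiating oligodendrocytes. The share of all protein-coding genes in both strict lists was 55.1%. In both loose lists 9 of 20 were open, against 61.3% of all genes, and 5 were in no peak list, against 33.7%. Ermn, Gjc3, Nkx6-2 and Apod, named after their values were seen, were among them, and Ermn encodes a cytoskeletal protein of myelinating oligodendrocytes.

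Of 17 lineage and precursor genes 11 were open in both strict lists (64.7%, 38.3 to 85.8), namely Olig1, Olig2, Pdgfra, Gpr17, Ptprz1, Sox8, Zfp536, Lhfpl3, Bcan, Tcf7l2 and Sirt2. Olig1 and Olig2 specify the lineage, Pdgfra is the growth factor receptor of precursors, and Gpr17 marks precursors about to differentiate. Of all protein-coding genes, 55.1% were open in both strict lists. In both loose lists 13 of 17 were open, against 61.3% of all genes, and 2 were in no peak list, against 33.7%. Those 2, named after their values were seen, were Sox10 and Cspg4. The promoter of the differentiation factor Myrf was strict in replicate 1 alone. The interval of the 9 myelin genes overlaps that of the lineage genes, and no test was made of the difference. The lists also differ in base composition. CpG-poor promoters were 55.6% of the 9 members, 80% of the other myelin genes and 35.3% of the lineage genes, against 55.6% of all genes. The part of this composition in the difference was not tested.

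For the tissue label, the promoters of 10 of 10 neuron markers were open in both strict lists, against 5 of 10 astrocyte, 4 of 10 microglia and 2 of 10 endothelial markers. In the loose lists the counts were 10, 9, 6 and 4. The shares of all protein-coding genes were 55.1% in both strict lists and 61.3% in both loose lists. The part that cell numbers have in the state of the myelin promoters was not tested.

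**Figure D5:**
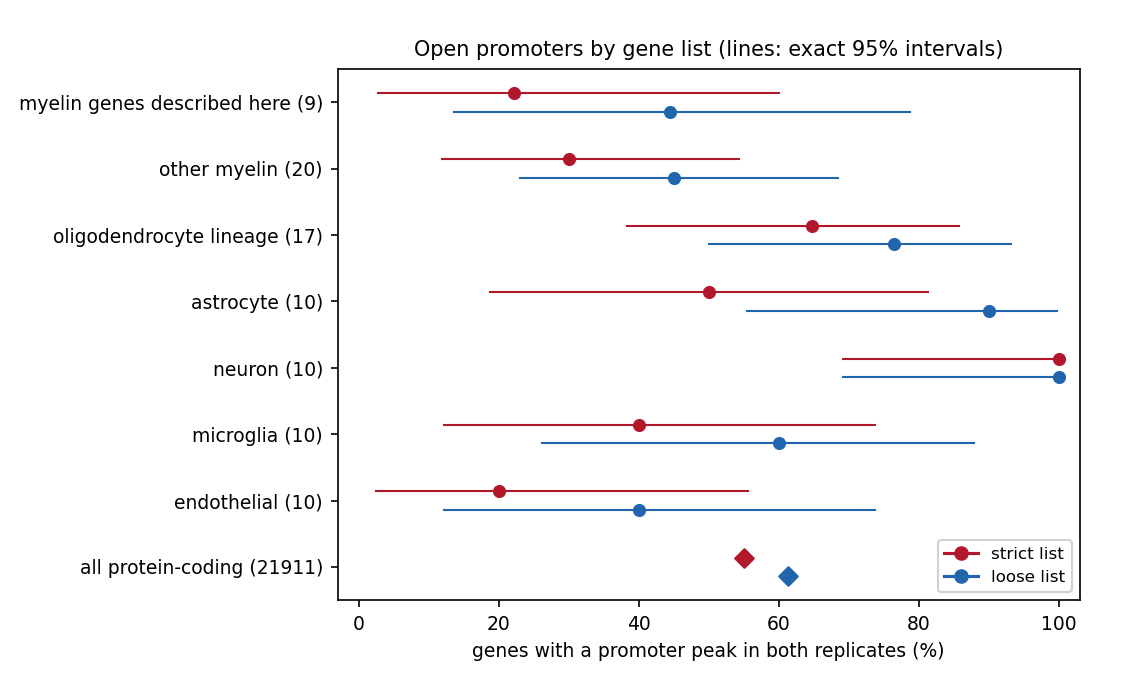
Open promoters, as a percentage of the genes of each list (horizontal axis), in both replicates, for strict and loose peaks, with exact 95% intervals as lines and the number of genes in brackets. Diamonds are all protein-coding genes. The myelin genes sit at 22.2% strict and 44.4% loose, below the lineage genes at 64.7% and 76.5%, with overlapping intervals.

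The promoters of the members were searched for words of factors known from oligodendrocytes, on both strands, over the 300 bases from 250 before to 50 after the first start. A match is a description of the letters and not a site. The MYRF words CTGGCAC and CTGGTAC were in 4 of 9 member promoters, Mog, Mag, Cnp and Opalin, against 6.80% of all promoters. The SOX words ACAAAG and ACAATG were in 5 of 9, Mag, Cnp, Mobp, Aspa and Opalin, against 26.3%. The E-box words CAGCTG and CAGATG were in 2 of 9, Mobp and Opalin, against 28.2%. The word GGGCGG was in 4 of 9, Mbp, Cnp, Ugt8a and Cldn11, against 43.0%. CCAAT was in 3 of 9, against 39.0%. TATAAA was in 0 of 9, against 12.6%, and the thyroid hormone receptor word AGGTCA in 0 of 9, against 14.8%. The full NFI palindrome was in 0 of 9, against 0.0274%. None of these words contains another. The first start of Mbp is the Golli start, and its internal start held SOX, E-box, GGGCGG and TATAAA words. Among the later starts of other members, SOX words were at Mobp and Ugt8a. E-box words and CCAAT were at Mobp and Aspa, and TATAAA was at Aspa. No later start held a MYRF, NFI or AGGTCA word. Of the 4 promoters with a MYRF word, Cnp alone was open.

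In the 200 bases around the middle of the 16 strict peaks of replicate 1 in the spans, the MYRF words were in 0, against 7.80% of all strict peaks of replicate 1. The E-box words were in 7 of 16, against 30.2%, and the SOX words in 4 of 16, against 16.0%. The E-box word in the Mog peak shown above lay wholly in a footprint of replicate 2 and partly in a footprint of replicate 1. That in the Cldn11 peak shown ran across adjoining footprints of replicate 2 and replicate 1. No footprint of either library held all of the Cldn11 word. After the footprints had been seen, a pair of CTCF words, AGNNGGCGC and a longer consensus whose letters can overlap it, was searched as well. They were in 3 of 16 member peaks, at Mbp, Opalin and Mobp, against 15.9%, and in 3 of 9 first-start promoters, at Ugt8a, Opalin and Cldn11, against 10.5%. In the Opalin peak shown AGNNGGCGC occurs 2 times on the opposite strand, at bases 53 and 113, and in the Mobp peak shown the longer word begins at base 94, in each case wholly inside the capitals. As the footprints were seen before the words were added, this place inside the capitals is a description and no independent result.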

How the data were processed

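DNase-seq of 2 libraries in 1 group was analysed from the interval lists on mm10. The peak densities are a normalised signal deposited by the authors with each narrowPeak list. The hotspot value is a maximum of −log10 FDR, per the file headers. The deposited per-base tracks hold the FDR, an adjusted p-value, for bases under 0.05. The footprint lists deposited by the authors carry a threshold of 0.01 in every line. Peaks and hotspots were called per library, with an aligner and callers not given in the sources used here. FDR limits of the strict and loose lists were inferred from the lowest per-base FDR that each peak contains. Reads of an F1 cross placed on a C57BL/6J reference can favour 1 allele, which was not examined.

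Overlaps (at least 1 bp) were computed with Python 3.11.15, numpy 2.4.6 and pandas 2.3.3, binomial intervals with scipy 1.17.1 and figures with matplotlib 3.10.9, after a test of the overlap code on simulated intervals. Genes were those of GENCODE vM21 and sequence that of GRCm38.p6 from RefSeq. All 9 members were named. Other genes were named where their promoter held a peak inside a span, or where they were myelin or lineage genes open in both strict lists. Neighbours whose bodies or starts place a site, and myelin or lineage genes without a strict peak in both libraries, were named after their values were seen. The members' rule uses no measured value, but members, lists and words were chosen with earlier results of these data known. Some genes of the comparison lists are not reported here. No test between groups was possible. Alternatives changed the list, the promoter window, the starts used, the overlap, the flank and the library.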

Additional observations from a re-analysis of the deposited data

How the results depend on the processing

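The number of members with an open promoter in both libraries was 2 in the strict lists and 4 in the loose lists. It was 1, Ugt8a, for peaks with a base at an FDR of 0.0001 or lower, where the share of all genes is not given. It lay between 2 and 3 in the read-derived lists, with promoter windows of 500 or 2500 bp, with starts of protein-coding transcripts alone and with each library alone. Shared strict peaks in the spans numbered 11, against 30 in the loose, 22 in the smaller read-derived and 32 in the larger read-derived lists, 6 for the gene bodies alone and 36 with 50 kb on each side. Each library alone gave 16 to 23. Shared hotspots numbered 42, against 21 in the gene bodies and 71 with 50 kb on each side. Shared footprints numbered 33, against 14 in the gene bodies and 114 with 50 kb on each side, and each library alone gave 61 to 96. A shorter flank or list holds fewer intervals by its construction. Replicate 2 holds more peaks and footprints than replicate 1. No paired analysis was possible because both libraries belong to 1 group. With 9 genes and 2 libraries, counts rest on few intervals, and lists without a peak do not show that a promoter was closed in every cell. Read depth per promoter was not analysed here.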

Other observations

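A further pair of footprint lists, of replicate 2 alone, gives positions only. The smaller of them held 68 footprints in the 9 spans and 4 within 1 kb of a start of a member, and the larger held 147 and 18. Neither held a footprint in the spans of Mag or Aspa. The larger list held 20 footprints in the Mog span, 1 of them at its promoter.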
